A study of Mus musculus with 50 samples.

Results

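The 10 genes described here are the Notch receptors Notch1, Notch2, Notch3 and Notch4, the ligands Jag1, Jag2, Dll1 and Dll4, and the transcriptional targets Hes1 and Hey1, taken by gene symbol from a table of 37701 genes. They were measured by RNA sequencing in 50 mammary gland tumors of female p53R270H/+WAPCre mice, in which the WAP promoter drives Cre in mammary epithelium and Cre switches on 1 copy of the mutant p53 R270H; the control mice carried the same alleles. Injections under the skin began at 8 weeks of age and were given every other day, with vehicle, insulin, glargine, X10 or insulin-like growth factor 1 (IGF1), and each group held 10 tumors. Tumors were taken at 1 cm3, 24 h after the last injection, and the tumors titled untreated in the labels were taken as the vehicle group. The study selected EMT-like tumors (tumors with mesenchymal features) whose latency was close to the median of their treatment group, which limits how far a group stands for all tumors of that treatment. The paper reports a significantly shorter latency for X10 and IGF1. In comparisons of these groups, mouse age at harvest and length of treatment therefore cannot be told apart from the compound.

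Notch receptors are surface proteins that are cut when a ligand of the Jagged or Delta-like family on a neighbouring cell binds them. The part that is released enters the nucleus, joins the DNA-binding protein RBPJ and switches on repressor genes such as Hes1 and Hey1. In the mammary gland the pathway takes part in the choice between luminal and basal epithelial fates, Notch4 and Dll4 are best known from endothelium, and Notch3 from the mural cells that surround blood vessels.

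Values were deposited as RPKM (reads per kilobase of transcript, relative to the size of the library). All 10 genes had a mean of at least 0.5 RPKM over the 50 tumors, as had 16733 genes in all. The whole-number steps of the values gave library sizes of 26.6 to 51.9 M reads and a median of 40.9 M reads per tumor. Hey1 was the least deeply covered member, with 66.9 to 547 reads per tumor, and Notch2 the deepest, with a median of 6081 reads. The same steps gave the length by which the authors had divided each gene. For Notch1 this length was 406 bases, although its longest coding transcript in the GENCODE M21 annotation of GRCm38 has 9488 bases. In 6 of the 10 members, and in 52.1% of the 16531 genes with a recovered length and an annotation, it equalled the median length of all annotated transcripts of the gene, short non-coding ones included. A deposited value can therefore be compared between tumors but not between genes, and levels of different genes are compared below only after dividing the same reads by the longest coding transcript.

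On that scale Hes1 was the highest member, at 17.4 ± 5.87 RPKM (mean ± SD, n = 50). Notch2 followed at 16.4 ± 8.04 RPKM, and Hes1 exceeded Notch2 in 27 of the 50 tumors, so that their order was not separated. Notch2 exceeded Jag1, the next gene, in 41 of 50 tumors. The recovered lengths of Notch2 and Notch3, and with them their places in this order, are less certain than those of the other members. Jag1 was at 9.50 ± 8.02 RPKM, Notch1 at 8.90 ± 3.04 RPKM and Dll4 at 7.56 ± 2.69 RPKM on the coding length, and neither Jag1 above Notch1 (20 of 50 tumors) nor Notch1 above Dll4 (29 of 50 tumors) was a stable order. Dll4 exceeded the next gene, Notch4, in 46 of 50 tumors. Notch4 at 4.95 ± 1.82 RPKM, Dll1 at 4.64 ± 3.49 RPKM, Notch3 at 3.13 ± 1.81 RPKM, Jag2 at 2.66 ± 2.20 RPKM and Hey1 at 1.87 ± 0.851 RPKM made up the lower part, and in each of these neighbouring pairs the gene with the higher mean was higher in 29 to 36 of 50 tumors. The order of the deposited values was different, with Notch1 first at 208 RPKM and Notch4 at 51.8 RPKM, because their divisors of 406 and 630.5 bases were 23.4 and 10.5 times shorter than the coding transcript.

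**Figure D1:**
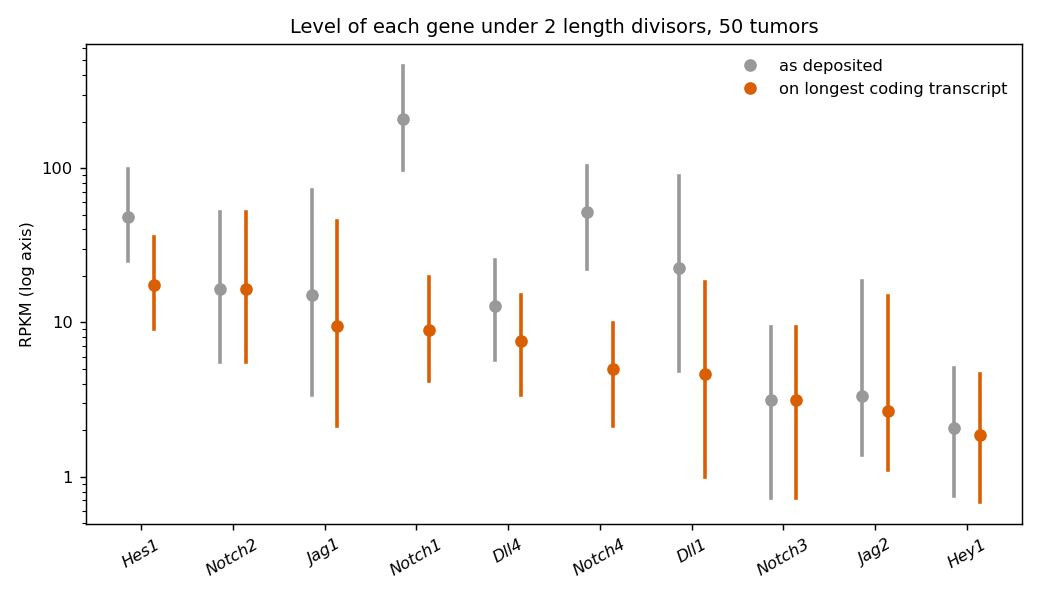
Level of each gene over the 50 tumors, with the RPKM value on a log axis, as deposited (grey) and after division by the longest coding transcript (orange). Points are means and lines run from the lowest to the highest tumor. Notch1 moves from 208 to 8.90 RPKM, while Notch2 and Notch3 stay in place because the divisor was close to their coding length.

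Summed over the 4 receptors on the coding length, Notch2 held 47.6 ± 12.3% of the receptor total, Notch1 27.2 ± 7.65%, Notch4 15.5 ± 6.14% and Notch3 9.63 ± 5.19% (mean ± SD over 50 tumors). Notch2 was the highest receptor in 41 tumors, Notch1 in 8 and Notch4 in 1. Among the 4 ligands Jag1 held 37.1 ± 14.5% of the total and Dll4 33.7 ± 11.0%, and Jag1 was the highest ligand in 25 tumors, Dll4 in 22 and Dll1 in 3. Jag2 was the highest ligand in no tumor, with at most 25.5% of the ligand total. Transcript shares say nothing about protein at the surface, which was not measured here.

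The receptors lie at 4 loci of GRCm38. Notch1 (ENSMUSG00000026923) is at chr2:26457903-26516663 on the minus strand, and Notch2 (ENSMUSG00000027878) is at chr3:98013527-98150361 on the plus strand. Notch3 (ENSMUSG00000038146) is at chr17:32120820-32166852 on the minus strand and Notch4 (ENSMUSG00000015468) is at chr17:34564268-34588503 on the plus strand. Deposited Notch1 was at 97.0, 185 and 338 RPKM (lowest, median and highest) in vehicle tumors, 144, 212 and 347 RPKM in insulin tumors, 129, 195.1 and 461 RPKM in glargine tumors, 135.8, 200 and 361 RPKM in X10 tumors and 102, 180 and 254 RPKM in IGF1 tumors. The 5 groups overlapped along most of their range, and the single highest value was in tumor glargine_63. Deposited Notch2 was at 7.57, 14.3 and 21.4 RPKM in vehicle tumors, 13.8, 15.9 and 52.3 RPKM in insulin tumors, 5.57, 15.4 and 25.2 RPKM in glargine tumors, 8.16, 13.0 and 20.7 RPKM in X10 tumors and 5.73, 16.8 and 33.7 RPKM in IGF1 tumors. Tumors insulin_15 and insulin_37 held 2 of the 3 highest Notch2 values, at 52.3 and 31.1 RPKM, while the insulin median was close to that of vehicle. All 10 insulin tumors were above the vehicle mean of log2 values for Notch2, although the 2 groups overlapped.

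Deposited Notch3 was at 0.728, 3.01 and 9.25 RPKM in vehicle tumors, 1.72, 3.22 and 4.73 RPKM in insulin tumors, 1.97, 2.80 and 4.98 RPKM in glargine tumors, 1.29, 2.34 and 9.34 RPKM in X10 tumors and 0.949, 2.33 and 5.40 RPKM in IGF1 tumors. The lowest tumor and 2 of the 3 highest were thus vehicle tumors, and the spread within vehicle covered all medians. Deposited Notch4 was at 22.3, 40.2 and 92.4 RPKM in vehicle tumors, 28.8, 57.6 and 90.9 RPKM in insulin tumors, 25.4, 41.6 and 80.0 RPKM in glargine tumors, 23.8, 41.3 and 80.7 RPKM in X10 tumors and 35.6, 55.8 and 104 RPKM in IGF1 tumors. The insulin and IGF1 medians of Notch4 lay above the other 3, with ranges that overlapped throughout. Notch3 and the annotated antisense gene Gm17276 overlap, as do Dll1 and A930024N18Rik, Dll4 and Gm14207, and Notch1 and 0610009E02Rik, all on opposite strands. The authors counted with the default options of HTSeq, which assign reads by strand, so that reads of these partners were not meant to be counted for the members. On the same strand Gm42819 and Gm42820 lie within Notch2, Mir6996 within Notch1 and Mir6941 within Jag2, and strand does not separate these.

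Jag1 and Dll1 had the widest spread of the 10 genes on the log2(RPKM + 0.5) scale. Jag1 (ENSMUSG00000027276, chr2:137081456-137116644, minus strand), a Jagged ligand, was deposited at 3.39, 14.9 and 72.3 RPKM in vehicle tumors, 7.32, 9.70 and 26.6 RPKM in insulin tumors, 6.83, 10.5 and 20.0 RPKM in glargine tumors, 5.94, 13.3 and 58.8 RPKM in X10 tumors and 5.27, 9.99 and 17.9 RPKM in IGF1 tumors. Jag2 (ENSMUSG00000002799, chr12:112907819-112929776, minus strand), the other Jagged ligand, was deposited at 1.67, 2.36 and 12.0 RPKM in vehicle tumors, 2.39, 3.19 and 8.92 RPKM in insulin tumors, 1.87, 2.84 and 3.28 RPKM in glargine tumors, 1.39, 2.88 and 18.6 RPKM in X10 tumors and 2.18, 2.55 and 3.61 RPKM in IGF1 tumors. The highest Jag1 values were in vehicle and X10 tumors, while for Jag2 a single tumor stood apart in each of the vehicle, X10 and insulin groups and the next values of these groups were 3.61 to 4.24 RPKM. The spread of Jag1 on the log2(RPKM + 0.5) scale was an SD of 0.83, against a median of 0.42 over all tested genes. Only 9.41% of the variance of Jag1 lay between the 5 groups, close to the median of 9.29% over all tested genes.

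Dll1 (ENSMUSG00000014773, chr17:15367354-15376872, minus strand), a Delta-like ligand, was deposited at 7.30, 26.4 and 88.8 RPKM in vehicle tumors, 5.69, 12.8 and 40.4 RPKM in insulin tumors, 5.07, 18.8 and 32.4 RPKM in glargine tumors, 7.13, 22.2 and 58.3 RPKM in X10 tumors and 4.81, 21.1 and 38.4 RPKM in IGF1 tumors. Its SD of 1.01 on the log2 scale was larger than that of 92.5% of tested genes, and every group held tumors below 8 RPKM. Dll4 (ENSMUSG00000027314, chr2:119325784-119335962, plus strand), the ligand of sprouting endothelium, was deposited at 5.72, 9.80 and 19.4 RPKM in vehicle tumors, 6.25, 13.8 and 19.0 RPKM in insulin tumors, 6.29, 11.6 and 21.6 RPKM in glargine tumors, 8.77, 11.1 and 20.5 RPKM in X10 tumors and 9.72, 15.2 and 25.2 RPKM in IGF1 tumors. The vehicle median of Dll4 was the lowest of the 5 and the IGF1 median the highest, and 9 of 10 IGF1 tumors lay above the vehicle mean on the log2 scale.

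The targets Hes1 and Hey1 encode repressors with a basic helix-loop-helix domain. Hes1 (ENSMUSG00000022528, chr16:30064384-30067796, plus strand) was deposited at 34.1, 52.7 and 98.4 RPKM in vehicle tumors, 25.0, 39.2 and 53.7 RPKM in insulin tumors, 28.2, 44.5 and 60.3 RPKM in glargine tumors, 32.8, 51.0 and 91.0 RPKM in X10 tumors and 28.1, 37.8 and 64.8 RPKM in IGF1 tumors. All 10 insulin tumors were below the vehicle mean of log2 values, although the 2 groups overlapped. Hey1 (ENSMUSG00000040289, chr3:8663359-8667256, minus strand) was deposited at 0.944, 1.76 and 4.70 RPKM in vehicle tumors, 1.39, 1.82 and 4.18 RPKM in insulin tumors, 0.749, 1.73 and 3.33 RPKM in glargine tumors, 0.953, 1.82 and 5.08 RPKM in X10 tumors and 1.09, 2.09 and 3.45 RPKM in IGF1 tumors. The Hey1 medians were nearly level, and 3.23% of its variance lay between groups, the smallest share of the 10 genes. Hes1 had the largest share, 18.6%, which was higher than in 86.8% of tested genes.

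**Figure D2:**
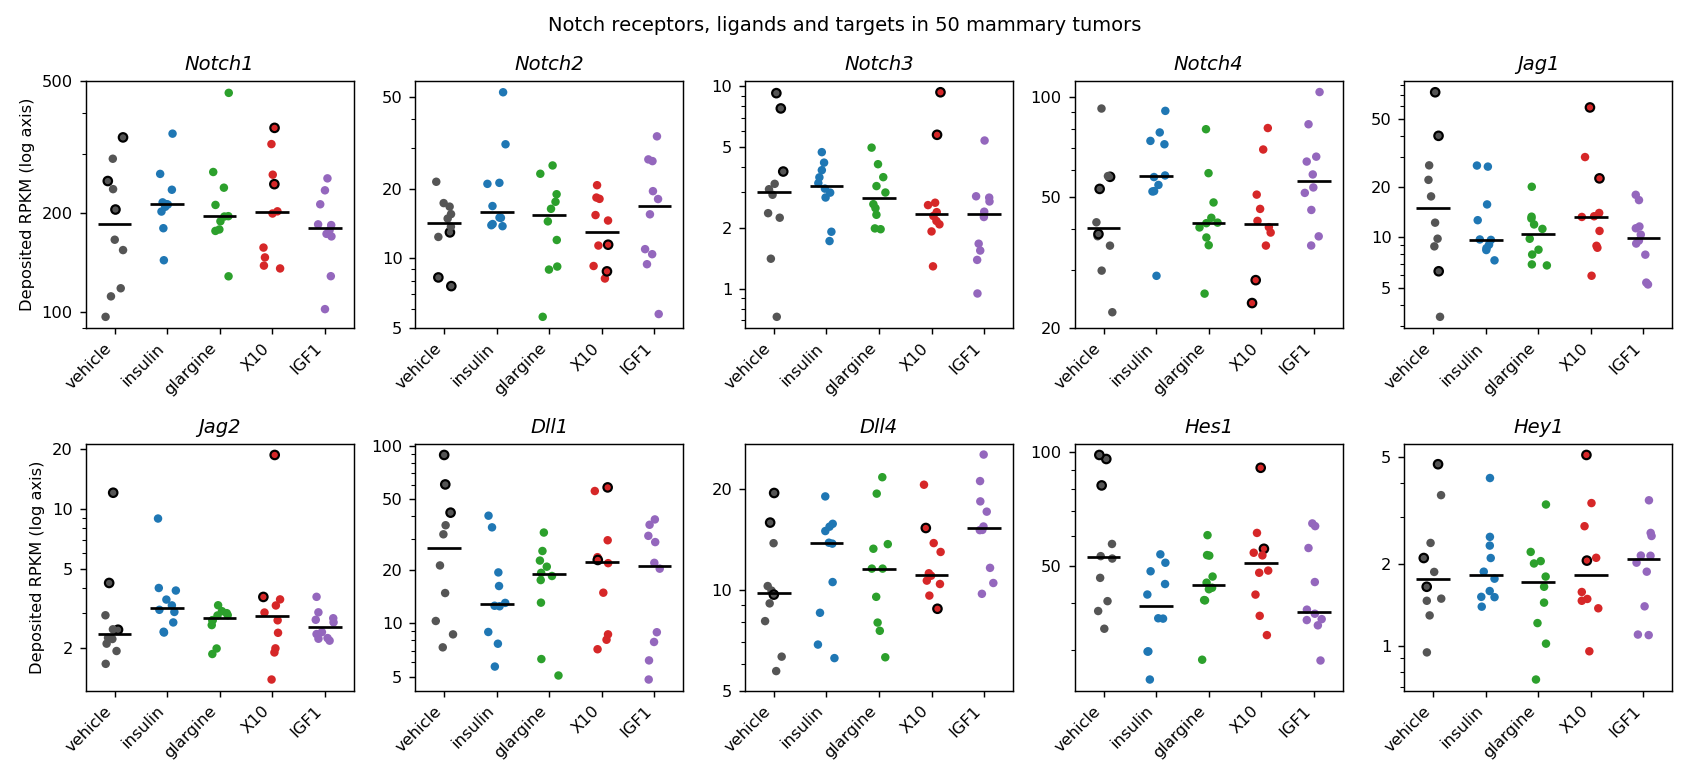
Deposited RPKM (log axis, which differs between panels) of the 10 genes in each tumor, by treatment group, with 10 points per group and a line at the median. Points with a black edge are the 5 tumors of highest epithelial marker score, 3 vehicle and 2 X10 tumors, and they include the 2 highest Jag1, Jag2 and Hes1 values.

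The question of the design was whether the compounds changed expression in the tumors. The 4 compound groups were each set against vehicle, and the 20 tumors of the X10 and IGF1 groups against the other 30, with limma on log2(RPKM + 0.5) and Benjamini-Hochberg adjustment over all 16733 tested genes. None of the 10 genes passed an adjusted p of 0.05 in any of these comparisons, in the test for any difference among the 5 groups, or between insulin and its analogs. Few genes passed at all: the share of tested genes called was 0% for insulin and for glargine against vehicle, 0.0657% for X10, 0.00598% for IGF1, 0.155% for X10 and IGF1 against the rest, 0.102% for any difference, 0% for glargine against insulin and 0.102% for X10 against insulin. The p-values treat the tumors, each from its own mouse by the mouse numbers of the labels, as independent samples.

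At an unadjusted p under 0.05, 2 members differed between insulin and vehicle, where 11.1% of all genes did. Hes1 had a log2 difference of -0.53 (SE 0.18, limma p = 0.00515, adjusted p = 0.306) and Notch4 one of 0.44 (SE 0.22, p = 0.0454, adjusted p = 0.438), with 9 of 10 insulin tumors above the vehicle mean. None of the 10 members had an unadjusted p under 0.05 for glargine, where 6.23% of all genes did, or for X10, where 11.0% did. For IGF1, where 8.84% of all genes did, 2 members had one. Dll4 had a log2 difference of 0.57 (SE 0.21, limma p = 0.00963, adjusted p = 0.394) and Hes1 one of -0.39 (SE 0.18, p = 0.0349, adjusted p = 0.518), with 8 of 10 IGF1 tumors below the vehicle mean. For X10 and IGF1 against the other 3 groups, where 10.5% of all genes had an unadjusted p under 0.05, Dll4 did so with a log2 difference of 0.28 (SE 0.14, limma p = 0.0450, adjusted p = 0.458). In the test for any difference, where 13.1% of all genes did, Hes1 did (limma p = 0.0452, adjusted p = 0.372). These comparisons share the vehicle tumors, so that the Hes1 values for insulin and IGF1 are not independent of each other.

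Hes1 was highest in the tumors richest in epithelial markers. Epithelial markers (Epcam, Cdh1, 5 keratins and 3 claudins) summed to 13.7 to 7216 RPKM over the 50 tumors, and their score, the mean z-score of the 10 genes, was 1.503 to 2.56 in 5 tumors and at most 0.98 in the other 45. Of these 5 tumors 3 were vehicle tumors (Untreated_174, Untreated_182 and Untreated_195 in the labels) and 2 were X10 tumors (X10_105 and X10_111). Hes1 was at 96.0, 98.4 and 81.7 RPKM in the vehicle tumors of this kind and at 91.0 and 55.5 RPKM in the X10 tumors, which were the 4 highest Hes1 values of all and the 11th. Without the 5 tumors the log2 difference of Hes1 was -0.23 for insulin (limma p = 0.176, adjusted p = 0.809) and -0.09 for IGF1 (p = 0.591, adjusted p = 0.916). That of Dll4 for IGF1 was 0.78 without them (p = 0.00117, adjusted p = 0.408). In bulk tumors fewer cells of a type and less RNA per cell cannot be told apart.

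**Figure D3:**
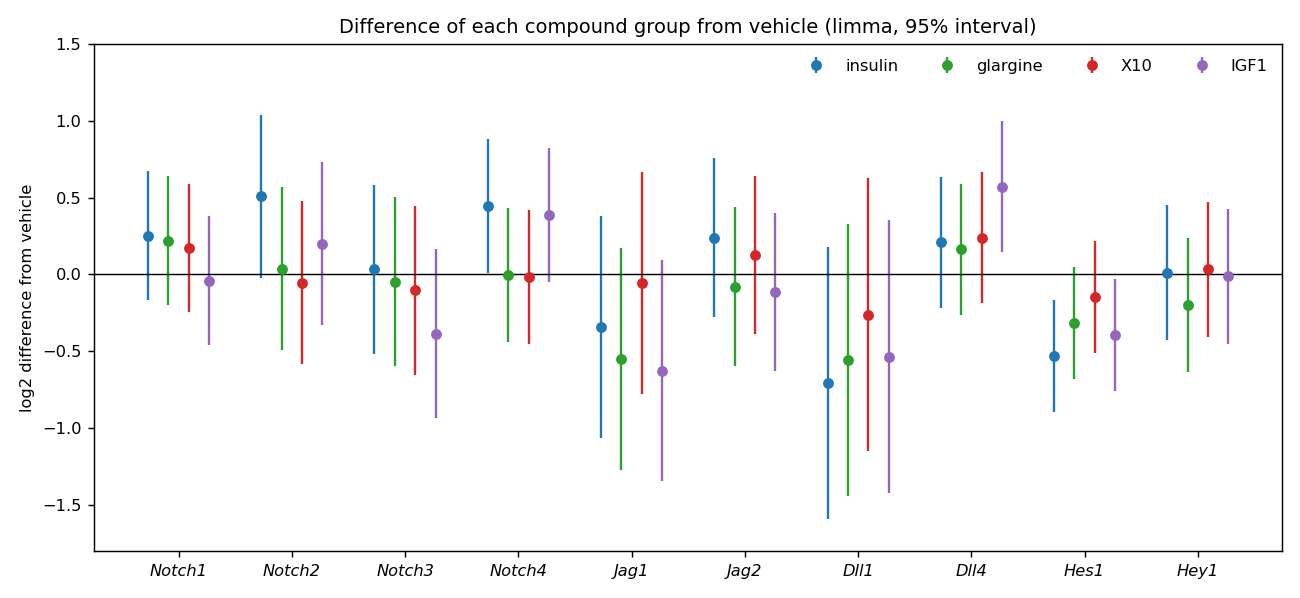
Log2 difference of each compound group from vehicle for the 10 genes, from limma on log2(RPKM + 0.5), with 95% intervals and 10 tumors per group. Most intervals cross 0, those of Hes1 for insulin and IGF1 lie below it and those of Notch4 for insulin and Dll4 for IGF1 above it, and no gene passed after adjustment over 16733 genes.

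The widest intervals belonged to Dll1, whose log2 difference from vehicle was -0.71 for insulin (95% interval -1.59 to 0.18), -0.56 for glargine (-1.44 to 0.33), -0.26 for X10 (-1.15 to 0.63) and -0.54 for IGF1 (-1.42 to 0.35). All 4 intervals of Dll1 reach beyond a difference of 1 on the log2 scale, which is the size that 10 tumors per group left undecided for this gene. Of the members, 7 were higher and 3 lower in insulin than in vehicle tumors, with a median log2 difference of 0.12 against 0.03 over all tested genes. For the other compounds 3 of 10 were higher for glargine, 4 for X10 and 3 for IGF1, with medians of -0.06, -0.04 and -0.08 against 0.02, -0.03 and 0.02 over all tested genes.

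Glargine and X10 are insulins with altered chains: in X10 a histidine of the B chain is replaced by aspartic acid, and in glargine a pair of arginines is added to the B chain and an asparagine of the A chain is replaced by glycine. The doses are not in the labels, so the groups are set side by side as injected. Between glargine and insulin, where 3.96% of all genes had an unadjusted p under 0.05, Notch4 had a log2 difference of -0.45 (95% interval -0.88 to -0.01, limma p = 0.0448, adjusted p = 0.990), with 9 of 10 glargine tumors below the insulin mean. Between X10 and insulin, where 11.3% of all genes did, 3 members had an unadjusted p under 0.05. Notch2 had a log2 difference of -0.56 (95% interval -1.09 to -0.03, limma p = 0.0379, adjusted p = 0.397), Notch4 one of -0.46 (-0.90 to -0.03, p = 0.0372, adjusted p = 0.394) and Hes1 one of 0.38 (0.02 to 0.75, p = 0.0398, adjusted p = 0.403). Without the 5 epithelial-rich tumors the difference of Notch4 between X10 and insulin was -0.28 (limma p = 0.212, adjusted p = 0.642). That of Notch2 was -0.47 (limma p = 0.0961, adjusted p = 0.515) and that of Hes1 was 0.26 (limma p = 0.109, adjusted p = 0.534). None of these passed the adjusted threshold, and the intervals of the 10 members ran from -0.9997 to 1.03 for glargine and from -1.09 to 1.33 for X10, so that the data do not show the analogs to be alike either.

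The same held for the rest of the pathway. A list of 48 other Notch genes was examined, of which 42 reached a mean of 0.5 RPKM; the repressors Hes2, Hes3, Hes5, Hes7 and Hey2 and the inhibitory ligand Dll3 did not. None of the 42 passed the adjusted threshold in any comparison. At an unadjusted p under 0.05 there were 6 of 42 for insulin (4 higher, 2 lower), 1 for glargine, 4 for X10 (1 higher, 3 lower) and 2 for IGF1 against vehicle, where 11.1%, 6.23%, 11.0% and 8.84% of all tested genes did. There were 2 for X10 and IGF1 against the rest (10.5% of all genes), 3 for any difference (13.1%), 2 for glargine against insulin (3.96%) and 5 for X10 against insulin (1 higher, 4 lower, 11.3% of all genes). The smallest p-values for insulin belonged to Mfng, a Fringe enzyme that adds sugars to the receptors (log2 difference 0.56, SE 0.21, limma adjusted p = 0.342), and Spen, a co-repressor of RBPJ (0.43, SE 0.18, adjusted p = 0.387). Those for glargine were Myc, a target of the pathway (-0.33, SE 0.14, limma adjusted p = 0.789), and Snw1, a co-activator in the RBPJ complex (-0.21, SE 0.12, adjusted p = 0.810).

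For X10 they included Adam10, the protease that makes the first cut in the bound receptor (0.40, SE 0.19, limma adjusted p = 0.429). For IGF1 they were Dlk1, a Delta-like protein without the receptor-activating domain (0.91, SE 0.36, limma adjusted p = 0.426), and Dtx2, a Deltex ubiquitin ligase (0.28, SE 0.13, adjusted p = 0.547). They included Snw1 for X10 and IGF1 against the rest (0.19, SE 0.08, limma adjusted p = 0.315) and Dtx2 for any difference (limma adjusted p = 0.280). They included Spen both between X10 and insulin (-0.50, SE 0.18, limma adjusted p = 0.237) and between glargine and insulin (-0.39, SE 0.18, adjusted p = 0.990). The median log2 difference of the 42 genes was between -0.03 and 0.07 in the 4 comparisons with vehicle. It was -0.10 between glargine and insulin, with 11 genes higher and 31 lower where 48.3% of all tested genes were higher, and -0.05 between X10 and insulin, with 13 higher and 29 lower where 38.6% of all tested genes were higher.

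Several members varied together over the 50 tumors. Of 45 gene pairs, 12 passed an adjusted p of 0.05 for the Pearson correlation of log2(RPKM + 0.5) in a two-sided permutation test with 100000 resamples, 11 of them positive. These 12 are 26.7% of the 45 pairs, and of all pairs of tested genes 13.0% had an r at least as large in size as the weakest of the 12 (0.365); that the members differ from other genes in this was not tested. Notch1 and Dll1 had the highest r, 0.578 (permutation p = 2.0e-05, adjusted p = 0.00045), with Spearman's rho 0.582 (permutation p = 2.0e-05). It was 0.606 without the 2 tumors farthest from the Notch1 median and 0.652 after centring each treatment group. Of the other tested genes 0.161% had an r as high with Notch1 and 0.454% with Dll1. Notch4 and Dll4 had an r of 0.561 (permutation p = 2.0e-05, adjusted p = 0.00045) and a rho of 0.605 (permutation p = 1e-05, the smallest the test can give). It was 0.511 without the 2 tumors farthest from the Notch4 median and 0.553 after centring, and of the other tested genes 0.0717% had an r as high with Notch4 and 0.167% with Dll4. The vehicle tumor Untreated_194 went against this relation, with the highest Notch4 of its group, 92.4 RPKM, and the lowest Dll4 of all tumors, 5.72 RPKM.

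The upstream sequences of these 2 receptor and ligand pairs are shown because the genes of each pair varied together most closely. They are the 250 bases before a RefSeq start site in GRCm38.p6, written 5′ to 3′ on the strand of the gene, with capitals marking the ETS core (CGGAAG or AGGAAG, either strand), the letters recognised by ETS factors, a family with members active in endothelium. The windows are chr17:34564045-34564294 for Notch4, chr2:119325534-119325783 for Dll4, chr2:26503823-26504072 for Notch1, and chr17:15375824-15376073 and chr17:15376933-15377182 for the 2 starts of Dll1.
Notch4: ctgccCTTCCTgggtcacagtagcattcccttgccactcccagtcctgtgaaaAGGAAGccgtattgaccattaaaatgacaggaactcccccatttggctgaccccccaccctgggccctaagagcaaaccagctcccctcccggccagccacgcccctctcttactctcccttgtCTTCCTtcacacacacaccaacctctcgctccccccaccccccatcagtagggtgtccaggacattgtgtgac
Dll4: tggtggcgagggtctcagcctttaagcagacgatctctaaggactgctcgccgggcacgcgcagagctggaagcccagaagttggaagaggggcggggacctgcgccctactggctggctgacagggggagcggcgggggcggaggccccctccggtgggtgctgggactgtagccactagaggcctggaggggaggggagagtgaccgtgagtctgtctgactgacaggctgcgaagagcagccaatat
Notch1: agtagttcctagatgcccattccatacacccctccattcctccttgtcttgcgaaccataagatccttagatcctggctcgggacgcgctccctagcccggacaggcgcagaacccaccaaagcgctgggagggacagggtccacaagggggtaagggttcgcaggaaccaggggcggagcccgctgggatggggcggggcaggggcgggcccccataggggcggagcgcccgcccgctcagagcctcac
Dll1, downstream start: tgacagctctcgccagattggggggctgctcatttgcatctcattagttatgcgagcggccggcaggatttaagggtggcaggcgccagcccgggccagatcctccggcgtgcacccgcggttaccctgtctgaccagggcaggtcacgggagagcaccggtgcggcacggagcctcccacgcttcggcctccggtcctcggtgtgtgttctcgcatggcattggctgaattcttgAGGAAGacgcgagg
Dll1, upstream start: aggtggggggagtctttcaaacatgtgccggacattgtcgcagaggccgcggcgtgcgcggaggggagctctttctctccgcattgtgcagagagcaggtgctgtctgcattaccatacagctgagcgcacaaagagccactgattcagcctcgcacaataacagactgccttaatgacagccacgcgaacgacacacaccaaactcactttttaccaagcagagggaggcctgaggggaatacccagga
Notch4 had 3 matches, the nearest 73 bases before the start, Dll1 had 1, 14 bases before its downstream start, and Dll4 and Notch1 had none, while 39.2% of all 32851 promoter windows had at least 1. Neither pair thus shared these letters in both of its genes. The RBPJ core TGGGAA was searched on both strands in the 9 windows of the 8 members with an entry, and none held it, against 21.6% of all windows. The 9 windows had a GC content of 56.0 to 87.2%, above the median of 52.4% over all windows. Hes1 and Hey1 were not among the entries.

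None of the other pairs passed the adjusted threshold without the 5 epithelial-rich tumors named above, although not all of their r values were smaller. Jag1 and Hes1 had an r of 0.509 (permutation p = 0.00031, adjusted p = 0.00262) and a rho of 0.386 (permutation p = 0.00605), and r was 0.315 without the 2 tumors farthest from the Jag1 median. Notch3 was related to Hey1 (r = 0.501, rho 0.361), Jag1 (r = 0.488, rho 0.369) and Jag2 (r = 0.484, rho 0.377), with adjusted permutation p of 0.00262, 0.00262 and 0.0045. Without the 5 tumors these r values were 0.317 for Jag1 and Hes1, and 0.365, 0.285 and 0.165 for Notch3 with Hey1, Jag1 and Jag2, and none of them passed. Notch2 and Hes1 formed the only negative pair that passed, with an r of -0.497 (permutation p = 0.00029, adjusted p = 0.00262) and a rho of -0.488 (permutation p = 0.00046). It was -0.502 without the 2 tumors farthest from the Notch2 median and -0.404 without the 5 epithelial-rich tumors, where the adjusted p was 0.0574.

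The remaining 5 pairs that passed were Jag2 with Dll1 (r = 0.423), Notch1 with Jag2 (0.408), Jag1 with Hey1 (0.397), Jag2 with Hes1 (0.365) and Dll1 with Dll4 (0.365), with adjusted permutation p of 0.00787 to 0.0387. Jag2 and Hes1 rested on the 2 tumors farthest from the Jag2 median, without which r was -0.0123. Jag1 with Hey1 was also weak without the 2 tumors farthest from the Jag1 median (r = 0.148), as were Jag2 with Dll1 (r = 0.258) and Notch3 with Jag1 (r = 0.260). Without the 5 epithelial-rich tumors 2 of 45 pairs passed, Notch1 with Dll1 (r = 0.4995) and Notch4 with Dll4 (r = 0.610). Dll1 with Dll4 had an r of 0.391 in these 45 tumors, no smaller than in all 50 (permutation p = 0.00836, adjusted p = 0.0625), and Notch1 with Jag2 one of 0.337 (permutation p = 0.0259, adjusted p = 0.106). Tumors X10_105 and Untreated_182 held the 2 highest values of Jag1, Notch3 and Hey1.

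**Figure D4:**
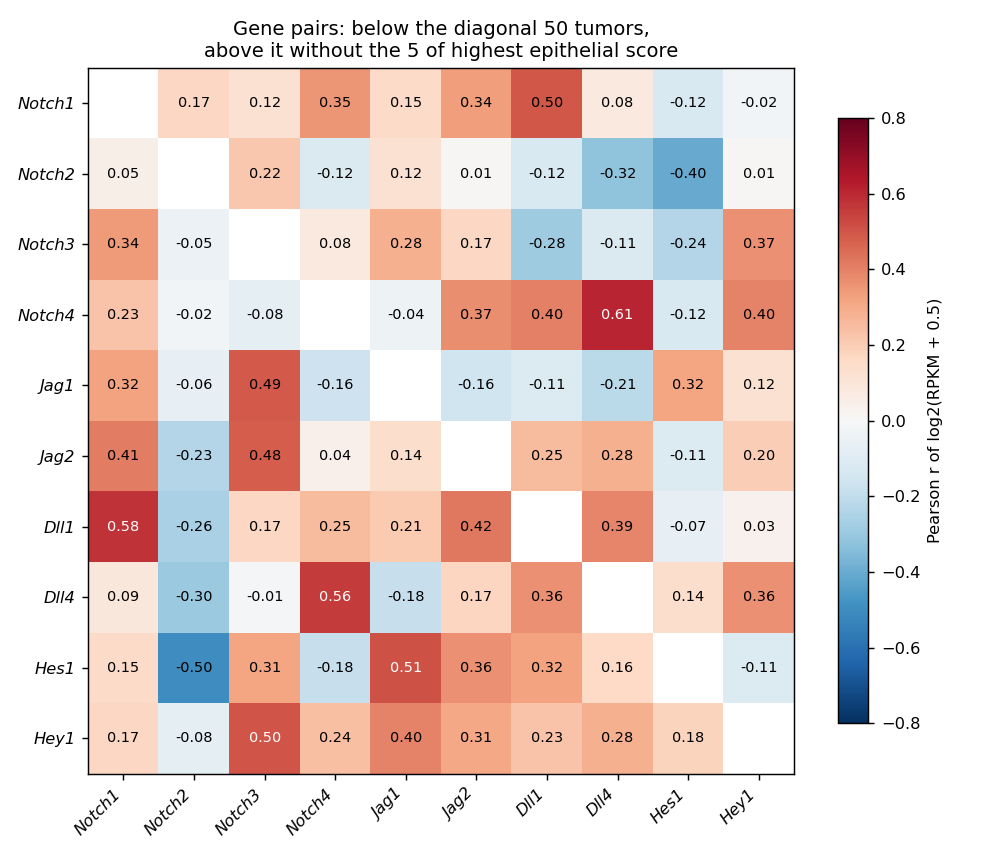
Pearson r of log2(RPKM + 0.5) for the 45 gene pairs, below the diagonal over 50 tumors and above it over the 45 tumors that remain without the 5 of highest epithelial marker score. Notch1 with Dll1 (0.578 and 0.4995) and Notch4 with Dll4 (0.561 and 0.610) stay high on both sides, while the Jag1, Jag2, Notch3 and Hes1 block below the diagonal is paler above it.

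The members were then compared with 7 lists of cell type markers, 51 genes in all, none of which was at 0 in every tumor. Of 70 relations between a member and the score of a list, 14 passed an adjusted permutation p of 0.05, 9 of them positive. These are 20.0% of the 70, and of all relations between a score and a tested gene outside the lists 8.81% had an r at least as large in size as the weakest of the 14 (0.368), which again is set beside the count and not tested. The mural markers were Rgs5, Pdgfrb, Cspg4, Kcnj8, Abcc9, Acta2, Myh11 and Des. Notch3 and their score had an r of 0.565 (permutation p = 5.0e-05, adjusted p = 0.00175) and a rho of 0.492 (permutation p = 0.00038). It was 0.391 without the 2 tumors farthest from the median mural score and 0.673 without the 5 epithelial-rich tumors. In those 45 tumors Notch3 was also related to the leukocyte markers (r = 0.516, adjusted permutation p = 0.0108). The paper groups Pdgfrb with mesenchymal genes and reports smooth muscle actin staining in its EMT tumors. The mural score therefore need not come from mural cells alone, and its source was not tested. Hes1 and the epithelial markers had the highest r, 0.590 (permutation p = 3.0e-05, adjusted p = 0.00175), with a rho of 0.368 (permutation p = 0.00853), but r was 0.159 without the 5 tumors.

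The epithelial score was likewise related to Dll1 (r = 0.475), Jag2 (r = 0.470), Notch3 (r = 0.427) and Notch1 (r = 0.375), and negatively to Notch2 (r = -0.374), with adjusted permutation p of 0.0107 to 0.0438. Without the 5 epithelial-rich tumors these were 0.164, -0.0725, -0.165, 0.206 and -0.182, and none passed. Notch4 was related to the endothelial markers (Pecam1, Cdh5, Kdr and 7 others) with an r of 0.411 (permutation p = 0.00297, adjusted p = 0.0219), a rho of 0.355 (permutation p = 0.0122), and an r of 0.265 without the 2 tumors farthest from the median endothelial score. Without the 5 epithelial-rich tumors it was 0.431 (permutation p = 0.00292, adjusted p = 0.0518). For Dll4, the other gene of that pair, r with the endothelial markers was 0.232 and did not pass (adjusted permutation p = 0.332). It was 0.370 without the 5 epithelial-rich tumors (permutation p = 0.0122) and did not pass either. Hey1 had an r of 0.355 with these markers (adjusted permutation p = 0.0568). For Notch3 r was 0.268 in all tumors (adjusted permutation p = 0.223) and 0.435 without the 5 (permutation p = 0.00296), and neither passed. Dll4 passed with the adipocyte markers (r = -0.408), Notch2 with the leukocyte markers (r = 0.416), Dll1 with the leukocyte markers (r = -0.414) and Hey1 with the mural markers (r = 0.438), each with an adjusted permutation p of 0.0219. Without the 2 tumors farthest from the median score these r values were -0.422, 0.338, -0.401 and 0.265, and without the 5 epithelial-rich tumors -0.353, 0.402, -0.368 and 0.345, with adjusted permutation p of 0.0893 to 0.142. Hes1 also passed with the leukocyte (r = -0.371) and fibroblast (r = -0.368) markers, with adjusted permutation p of 0.0438, and r with the fibroblast markers was -0.233 without the 2 tumors farthest from the median score. Neither passed without the 5 epithelial-rich tumors, with r of -0.311 for leukocyte (adjusted permutation p = 0.199) and -0.165 for fibroblast markers (adjusted permutation p = 0.637). By rank, with rho in place of r, only Notch3 with the mural markers passed among the 70.

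The marker scores themselves did not separate the groups. In none of the 28 comparisons of a compound with vehicle did a score pass an adjusted p of 0.05. The lowest p-values were those of the epithelial score for IGF1, at -0.55 ± 0.50 against 0.41 ± 1.24 in vehicle (mean ± SD, n = 10 each, permutation p = 0.0336, adjusted p = 0.508), and of the leukocyte score for insulin, at 0.31 ± 0.74 against -0.40 ± 0.67 (permutation p = 0.0363, adjusted p = 0.508). These 2 groups are the ones with an unadjusted p under 0.05 for Hes1 against vehicle, and the part of the marker levels in the Hes1 values was not tested beyond the fit without the 5 tumors and one with marker scores as covariates. In the latter the log2 difference of Hes1 was -0.39 for insulin (limma p = 0.0245, adjusted p = 0.645) and -0.16 for IGF1 (p = 0.362, adjusted p = 0.914).

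**Figure D5:**
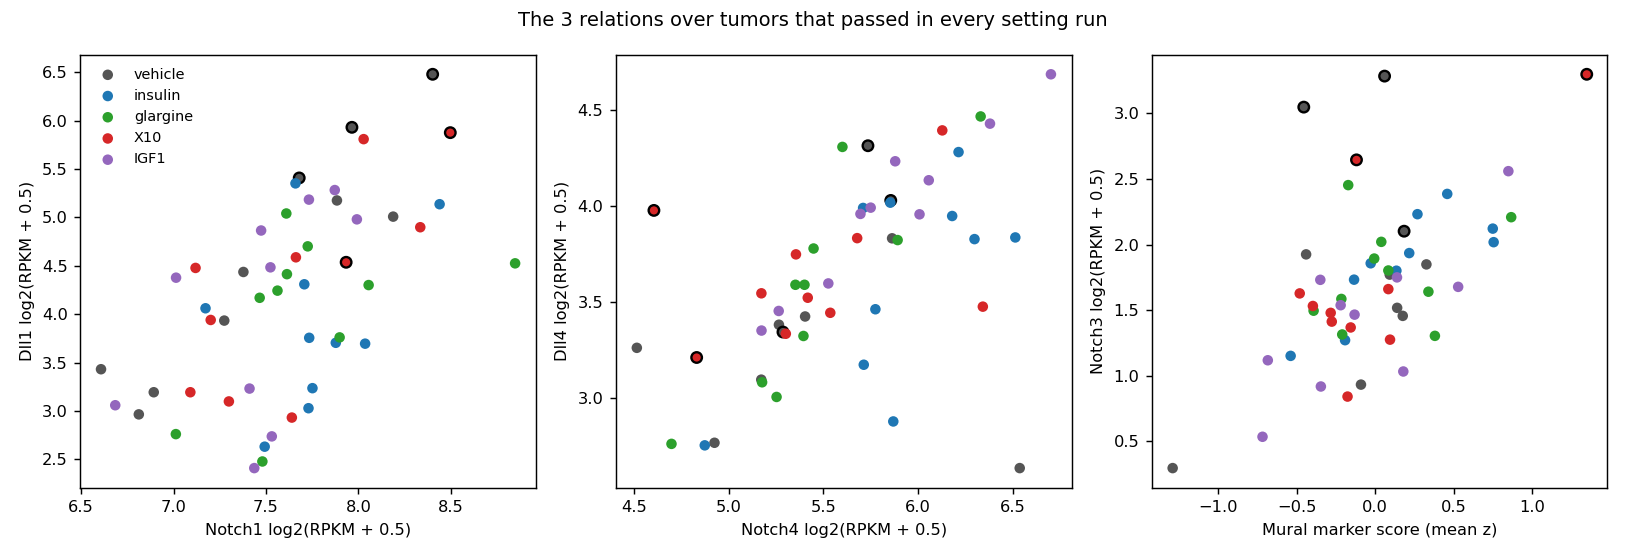
The relations that passed in every setting run, with 1 point per tumor coloured by treatment group: Dll1 against Notch1 and Dll4 against Notch4 on the log2(RPKM + 0.5) scale, and Notch3 on that scale against the mural marker score. Points with a black edge are the 5 tumors of highest epithelial score. In the mural panel 2 of them, vehicle tumors, lie well above the other tumors of like score.

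For each member the 3 tested genes with the highest Pearson r over the 50 tumors were listed, as a description. Notch2 had the closest neighbours, among them Kirrel (r = 0.867) and Tbck (0.836), followed by Dll1 with Serinc2 (0.826), Tmem40 (0.760) and Hr (0.759). Dll4 was closest to Wscd1 (0.783), Gm14207 (0.771), which is the gene that overlaps it on the opposite strand, and the potassium channel subunit Kcne3 (0.714). Notch3 was closest to Ppfibp2 (0.749), Heyl (0.746), itself a Hey family target of the pathway, and Mall (0.705). Jag2 was closest to Trim29 (0.747), Psca (0.740) and Dmkn (0.725), all genes known from epithelia.

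Jag1 was closest to Adamdec1 (0.696), 4833422C13Rik (0.694) and L3mbtl3 (0.675), and Hes1 to Ppdpf (0.686), 1700016C15Rik (0.664) and Cwh43 (0.652). Notch1 was closest to Lrrc8a (0.685), Rnf44 (0.673) and the transcription factor Stat3 (0.672). Notch4 was closest to Fam167b (0.629), Cck (0.619) and the proton-sensing receptor Gpr4 (0.618). Hey1 had the lowest neighbours, Alox12e (0.586), Mylip (0.575) and the matrix protein Sparcl1 (0.555). No other member was among the 3 closest genes of any member.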

How the data were processed

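RNA of 50 mammary tumors was Poly-A selected, prepared with the Ion Total RNA-Seq kit and sequenced on the Ion Proton. The authors aligned reads to GRCm38 with TopHat2 2.0.10 and Bowtie2, counted them per gene with HTSeq 0.6.1 and deposited RPKM values, which are no counts. No column was left unmatched to a sample, and no DESeq2 result of the authors was used. RPKM values of a gene were whole multiples of 1 step in 15466 of 16733 tested genes, and for 1247 others, Notch2 and Notch3 among them, the length was the one that most values fitted, so that gene lengths and reads were recovered for 16713 genes (99.88%). Of the values of Notch2 82.0% and of Notch3 88.0% were within 0.25 of a whole read, so that their lengths are less certain. In every tumor at least 97.15% of low values (up to 200 reads after scaling to the common library size) were whole within 0.5 scaled reads.

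The test was limma (version 3.58.1, R version 4.3.3), fitted to log2(RPKM + 0.5) of all genes with a mean of at least 0.5 RPKM, with 5 groups in 1 fit, an intensity trend and Benjamini-Hochberg adjustment; a fold change on this scale understates that of low genes. Intervals used 45 residual degrees of freedom. Correlations and scores were tested with two-sided permutation tests (100000 resamples, scipy 1.17.1), adjusted over 45 pairs, 70 marker relations or 28 score comparisons. Lengths and positions came from GENCODE M21 (GRCm38) and promoters from RefSeq (GRCm38.p6). Scripts were tested on simulated data.

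Named were all 10 members, pathway genes called plus the 2 of smallest p per comparison, and the 3 genes closest to each member. Some genes that this rule names are not reported here. The members and lists were chosen with earlier results of these data known. Alternatives were other pseudocounts (0.1 and 1), filters, scalings, no trend, marker covariates, limma voom on the recovered reads, only the groups compared, each tumor left out, centring within groups and ranks. Library size as a covariate and leaving out the 5 epithelial-rich tumors were added after seeing the data.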

Additional observations from a re-analysis of the deposited data

Results flagged for a closer look

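In each of the 50 combinations of a gene and a treatment group, the highest and the lowest of the 10 tumors were compared with the rest on the log2(RPKM + 0.5) scale, and a tumor was set apart when its gap to the nearest other exceeded the share of the group's range that Dixon's test allows at the 95% level. There were 6 such tumors, and chance alone flags about 1 in 20 groups. Jag2, a Jagged ligand, gave 3 of them. In tumor Untreated_174 it was at 12.0 RPKM against 4.24 RPKM in the next tumor, in tumor X10_105 at 18.6 RPKM against 3.61 RPKM, and in tumor insulin_14 at 8.92 RPKM against 4.00 RPKM. Untreated_174, a vehicle tumor, and X10_105 are among the 5 of highest epithelial marker score, and insulin_14 is not.

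Hey1 was at 4.18 RPKM in tumor insulin_37, where the next insulin tumor had 2.53 RPKM. Notch4 was at 28.8 RPKM in tumor insulin_15, below the next lowest value of 51.8 RPKM. This tumor also had the highest Notch2 of all 50, 52.3 RPKM. Hes1 was at 28.2 RPKM in tumor glargine_78, below the next lowest value of 40.5 RPKM.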

How the results depend on the processing

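In each of the 8 comparisons no member was called under any alternative, in 494 counts over the 8 comparisons. Among them were limma voom on the recovered reads and every fit with 1 tumor left out, whose counts ranged from 0 to 0. No other pathway gene was called. Under the filter of a mean of at least 5 RPKM, Notch3 (mean 3.12 RPKM), Jag2 (3.35 RPKM) and Hey1 (2.05 RPKM) were not tested. With limma voom the number of members at an unadjusted p under 0.05 was as in the fit on RPKM, 2 for insulin and 2 for IGF1. Of the 45 gene pairs 12 passed, and 11 to 16 did so under the other pseudocounts and scalings, centring and ranks, but 2 without the 5 tumors of highest epithelial marker score. Of the 70 marker relations 14 passed, but 9 after centring within treatment groups, 1 with Spearman's rho and 2 without those 5 tumors. These 2 were Notch3 with the mural and the leukocyte markers, and only 1 of them, with the mural markers, was among the 14. In the 45 tumors left, Notch4 with the endothelial markers (r = 0.431) and Notch2 with the leukocyte markers (r = 0.402) did not pass. Their r values were close to those in all tumors. The marker scores passed in 0 of 28 comparisons with the mean and with the median over a list.

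Without the 2 tumors farthest from the median, 8 of the 12 pairs and 8 of the 14 marker relations still had a permutation p under 0.05. For Jag2 with Hes1 the sign of r changed, to -0.0123 without the 2 tumors (permutation p = 0.932) and -0.107 without the 5 (permutation p = 0.486). It also changed for the epithelial score with Notch3 (-0.165, permutation p = 0.280) and Jag2 (-0.0725, permutation p = 0.638) without the 5. These relations were lost, and none passed in the other direction. The cause was not tested. The log2 difference of Hes1 against vehicle ranged over the alternatives that kept single tumors in from -0.54 to -0.23 for insulin and from -0.41 to -0.09 for IGF1, with the smallest differences without the 5 tumors, and that of Dll4 for IGF1 from 0.55 to 0.78. With 1 tumor left out these ranges were -0.61 to -0.44, -0.47 to -0.30 and 0.48 to 0.67. Hey1 had the fewest reads of the members. With library size as a covariate no member was called, and the effect of depth on Hey1 was not tested otherwise. No paired analysis was possible because the mouse numbers in the labels are different in every group.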
